A study of Mus musculus with 20 samples.

Results

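The enzymes that turn arachidonic acid into prostaglandins and leukotrienes were followed through 10 genes: Ptgs1, Ptgs2, Ptges, Ptgis, Hpgd, Alox5, Alox5ap, Alox15, Lta4h and Ltc4s. They were chosen by gene name, out of 34797 distinct gene names on the arrays, and all 10 were measured. They were covered by 13 probes (short DNA strands on the array that capture a transcript). All 13 entered the tests, and on every one of the 20 arrays 11 of them were well above background. Ptges, Ptgis and Hpgd had 2 probes each, and the brighter stands for the gene unless the other is named.

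The arrays measured RNA of the frozen diaphragm, the muscle that faces the pleural cavity, of 20 female C57Bl/6 mice, 4 in each of 5 groups. All mice were injected into the pleural cavity at 8 weeks of age and studied 12 weeks later. The control group received 100 μL of saline with 0.5% bovine serum albumin, and the same solution carried the fibers in the other groups. LFA (long amosite asbestos, an iron-rich amphibole fiber) and SFA (the same amosite shortened by milling) were given at 25 μg per mouse. By the labels, 100% of LFA and 3.1% of SFA fibers were at least 5 μm long. NTL (long carbon nanotubes) and NTS (short carbon nanotubes) were given at 5 μg per mouse, so asbestos and nanotubes differed in dose as well as in material. The RNA came from tissue of all cell types of the diaphragm together, and in such bulk RNA more cells of a type and more RNA per cell cannot be told apart. Skeletal muscle markers were well above background in all groups.

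Arachidonic acid is cut from membrane phospholipids by phospholipases A2. The cyclooxygenases Ptgs1 and Ptgs2 convert it to prostaglandin H2, which terminal synthases turn into prostaglandin E2 (Ptges) or prostacyclin (Ptgis), and Hpgd inactivates the products. In the parallel branch Alox5, which needs the membrane protein Alox5ap to receive its substrate, makes leukotriene A4. Lta4h converts this to leukotriene B4, an attractant of neutrophils, and Ltc4s converts it to leukotriene C4, the parent of the cysteinyl leukotrienes. Leukotriene synthesis is mostly a property of myeloid cells and mast cells, whereas cyclooxygenases are found in many cell types.

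Of these genes, 5 were higher in both long fiber groups. Ptgs1, Ptgs2, Alox5, Alox5ap and Ltc4s rose 2.1- to 6.0-fold in LFA and in NTL, and no gene of the 10 passed the test in SFA or NTS. The remaining 5 genes, Ptges, Ptgis, Hpgd, Lta4h and Alox15, did not pass the test against control in any group. A gene is said to have risen or fallen here when limma, a linear model fitted to all probes, gave an adjusted p under 0.05 and a change of at least 2-fold.

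RefSeq promoter sequence (GRCm38.p6) was given for 7 of the 10 genes, among them 4 of the 5 that rose. The 250 bases before the start of transcription of these 4 are shown because the genes moved together, and capitals mark matches to any of the motifs searched. Searched on both strands were GAGGAA (the core bound by PU.1, a factor of the myeloid lineage), TTNNGNAA (C/EBP), GGGCGG (bound by Sp1), the NF-kB motif (GGG, any pair of bases, T, any pair of bases, CC), the letters TATAAA (the core promoter element), CACGTG (E box), TGANTCA (AP-1), TGACGTCA (cyclic AMP response element) and its first letters TGACGT, which overlap it. The regions are chr2:36230176-36230425 (+ strand) for Ptgs1, chr1:150099781-150100030 (+ strand) for Ptgs2, chr6:116461179-116461428 (- strand) for Alox5 and chr11:50238533-50238782 (- strand) for Ltc4s.
Ptgs1: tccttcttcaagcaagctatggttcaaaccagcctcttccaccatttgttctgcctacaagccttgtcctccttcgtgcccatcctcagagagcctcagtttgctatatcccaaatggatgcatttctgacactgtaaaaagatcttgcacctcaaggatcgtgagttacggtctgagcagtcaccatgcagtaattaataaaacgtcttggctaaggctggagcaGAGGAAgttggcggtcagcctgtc
Ptgs2: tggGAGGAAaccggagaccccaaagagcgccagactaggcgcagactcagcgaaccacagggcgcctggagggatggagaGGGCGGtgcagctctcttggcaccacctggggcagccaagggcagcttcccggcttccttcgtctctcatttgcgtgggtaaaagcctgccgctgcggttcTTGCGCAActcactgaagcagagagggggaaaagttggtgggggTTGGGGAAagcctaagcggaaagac
Alox5: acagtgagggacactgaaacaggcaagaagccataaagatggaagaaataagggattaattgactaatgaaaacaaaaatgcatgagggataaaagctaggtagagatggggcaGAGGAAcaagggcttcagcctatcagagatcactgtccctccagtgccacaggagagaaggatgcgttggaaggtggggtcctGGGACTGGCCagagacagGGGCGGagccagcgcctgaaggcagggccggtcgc
Ltc4s: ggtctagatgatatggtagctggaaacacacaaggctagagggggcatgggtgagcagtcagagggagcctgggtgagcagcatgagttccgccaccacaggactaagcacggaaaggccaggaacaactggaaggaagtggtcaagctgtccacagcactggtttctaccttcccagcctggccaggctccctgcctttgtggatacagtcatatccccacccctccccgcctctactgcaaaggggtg

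GAGGAA was present once in each of Ptgs1, Ptgs2 and Alox5, and was not found in these bases of Ltc4s. It also occurred in Ptges, Hpgd and Lta4h, which did not pass limma's test against control. Thus 6 of the 7 genes held it, against 23.3% of all 32851 promoters cut to the same length. TTNNGNAA occurred in 3 of the 7, 2 times in Ptgs2 and once each in Ptges and Hpgd (36.8% of all promoters have at least 1 match). GGGCGG occurred in 4 of the 7, Ptgs2, Alox5, Ptges and Hpgd (32.7%), and the NF-kB motif in 2, Alox5 and Ptges (15.9%). TATAAA (12.4%), CACGTG (6.02%), TGANTCA (6.75%), TGACGT (6.47%) and TGACGTCA (1.55%) were found in none of the 7. Ltc4s held none of the motifs. The matches are letters only, and no binding was measured.

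The value of a probe is its log2 signal minus the 75th percentile of its array, so a value of 0 is the brightness of that percentile and 1 unit is 2-fold. Levels of different probes are not comparable. Ptgs1 makes cyclooxygenase 1, the form that many cells carry at all times, and its probe lies at chr2:36107644-36107703 (NCBI37, + strand). The 4 control arrays gave 1.92, 2.41, 1.75 and 1.91, the SFA arrays 2.68, 2.20, 2.18 and 2.05, and the NTS arrays 2.0, 1.49, 1.79 and 2.26. The LFA arrays gave 3.59, 3.33, 3.51 and 3.76, and the NTL arrays 3.58, 3.82, 3.02 and 3.72. Every long fiber array was above each of the 12 other arrays, which held for 4 of the 10 genes and for 1.43% of all probes. The log2 change was 1.55 ± 0.24 (SE, n = 4 per group) in LFA, with a limma adjusted p of 0.00182, and 1.54 ± 0.24 in NTL, with an adjusted p of 0.000903.

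Ptgs2 makes cyclooxygenase 2, the form induced in inflammation. Its probe (chr1:151954744-151954803, NCBI37, + strand) was printed 10 times on each array, and the SD between its spots on 1 array had a median of 0.153 (log2). Its log2 values were -4.42, -4.11, -4.15 and -5.05 in control, -2.32, -1.24, -3.07 and -0.78 in LFA, and -2.56, -1.43, -1.84 and -1.78 in NTL. In SFA they were -3.27, -4.79, -3.93 and -4.56, and in NTS -5.52, -5.91, -5.0 and -4.73. The long fiber arrays again lay above all others, but by a narrow margin, because the lowest LFA array (-3.07) was close to the highest SFA array (-3.27). The change was the largest of the 10 genes, at 2.58 ± 0.46 in LFA (5.98-fold, limma adjusted p = 0.00497) and 2.53 ± 0.46 in NTL (5.77-fold, adjusted p = 0.00259). With normexp background correction the changes shrank to 1.17 (adjusted p = 0.0262) and 1.07 (adjusted p = 0.0269). Ptgs2 was a dim probe outside the long fiber groups. It was well above background on all arrays of control, LFA and NTL, on 3 of 4 SFA arrays and on 1 of 4 NTS arrays.

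**Figure D1:**
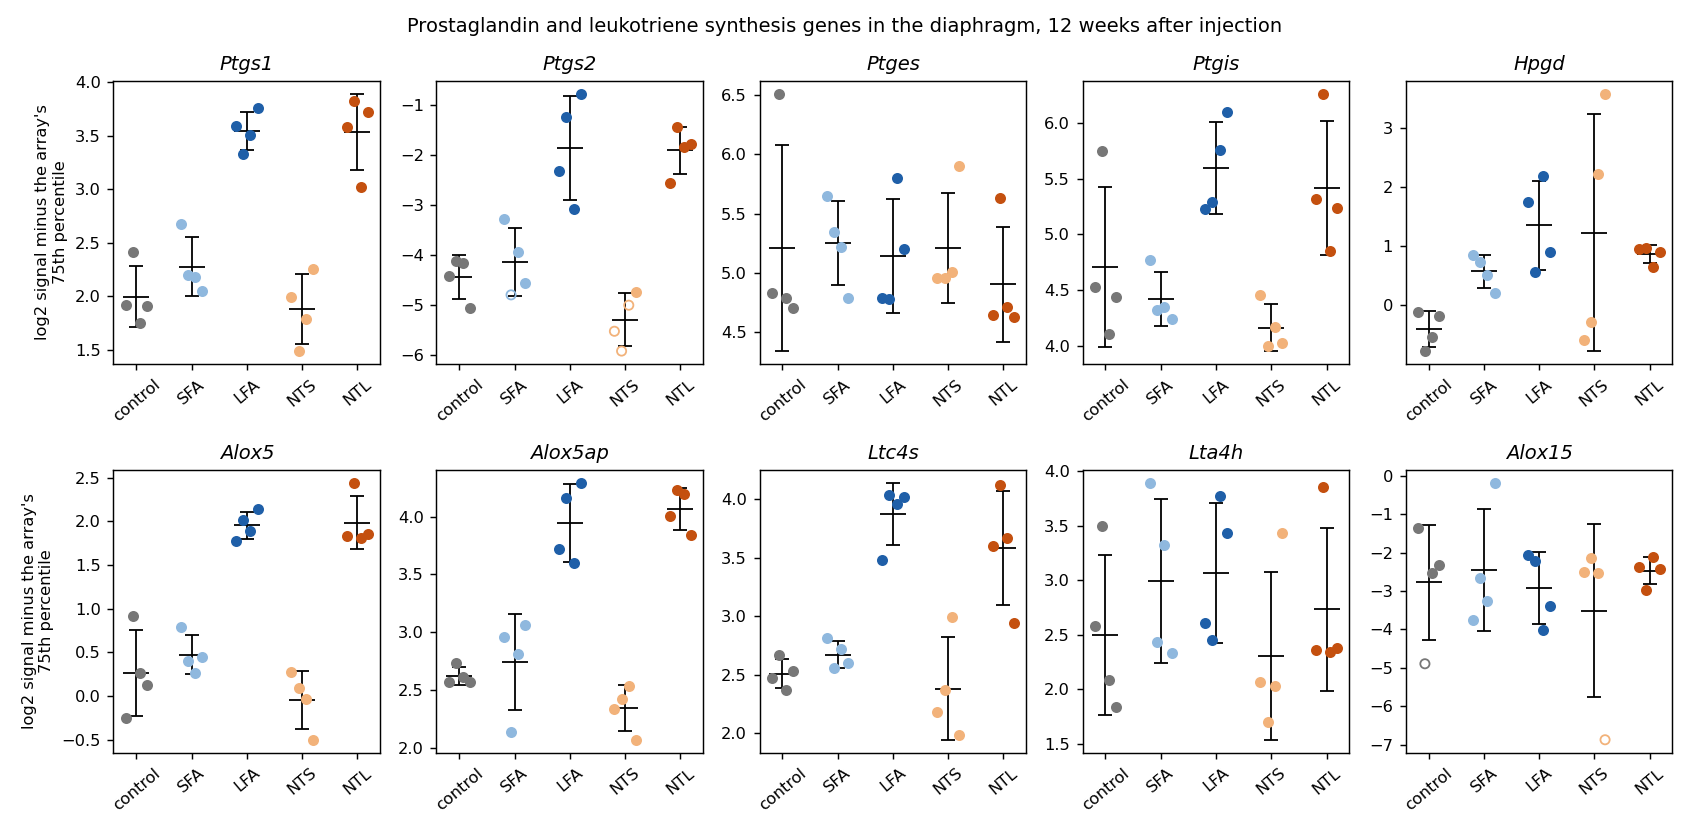
Log2 signal of each gene relative to the 75th percentile of the array, 1 panel for each of the 10 genes and 1 point for each of the 20 arrays, by group. Black bars give the mean and SD of 4 arrays, and open points were not well above background; in Ptgs1, Ptgs2, Alox5 and Alox5ap all 8 LFA and NTL arrays lie above the other 12, whereas in Ptges, Lta4h and Alox15 the groups overlap.

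Alox5 makes arachidonate 5-lipoxygenase, the first enzyme of the leukotriene branch (probe at chr6:116360326-116360385, NCBI37, − strand). Its values were -0.25, 0.92, 0.26 and 0.13 in control, 1.77, 2.02, 1.89 and 2.14 in LFA, and 1.83, 2.45, 1.81 and 1.86 in NTL. The SFA arrays ranged from 0.26 to 0.79 and the NTS arrays from -0.50 to 0.28. The lowest long fiber array was 0.85 above the highest of the 12 others. Alox5 rose by 1.69 ± 0.26 in LFA (3.23-fold, limma adjusted p = 0.00152) and by 1.72 ± 0.26 in NTL (3.30-fold, adjusted p = 0.000587).

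Alox5ap, the partner protein that presents arachidonic acid to Alox5, was higher in the same groups (probe at chr5:150099347-150099406, NCBI37, + strand). Its values were 2.57, 2.74, 2.61 and 2.57 in control, 3.72, 4.17, 3.60 and 4.30 in LFA, and 4.01, 4.23, 4.20 and 3.84 in NTL. The SFA arrays lay between 2.14 and 3.06 and the NTS arrays between 2.07 and 2.53. All long fiber arrays were above all others. The change was 1.32 ± 0.23 in LFA (limma adjusted p = 0.00437) and 1.45 ± 0.23 in NTL (adjusted p = 0.00102).

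Ltc4s joins glutathione to leukotriene A4 (probe at chr11:50049974-50050031, NCBI37, − strand). Its values were 2.48, 2.67, 2.37 and 2.53 in control, 3.48, 4.04, 3.96 and 4.02 in LFA, and 3.60, 4.12, 3.67 and 2.95 in NTL. The NTS arrays gave 2.18, 2.37, 3.0 and 1.98, so the highest NTS array was level with the lowest NTL array. The SFA arrays were between 2.56 and 2.81. Ltc4s rose by 1.37 ± 0.26 in LFA (2.58-fold, limma adjusted p = 0.00736). In NTL it rose by 1.07 ± 0.26 (2.10-fold, adjusted p = 0.0164), and without NTL replicate 2 the change was 0.89 with an adjusted p of 0.0546.

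Thus 5 of 10 genes rose in LFA and 5 of 10 in NTL, and the 5 were shared. Of all 36930 probes tested, 2.22% rose in LFA and 3.63% in NTL. At an unadjusted p under 0.05 the count was 7 in LFA (23.9% of all probes changed at that level) and 5 in NTL (23.5%). The arrays of 6 genes, these 5 and Hpgd, lay wholly above the control arrays in LFA, and likewise in NTL, where the shares over all probes were 4.6% and 6.34%. The median change of the 10 genes was 1.34 in LFA and 1.17 in NTL, when the median over all probes was -0.28 and -0.25. LFA and NTL were compared with the same control arrays, so these values are not independent.

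**Figure D2:**
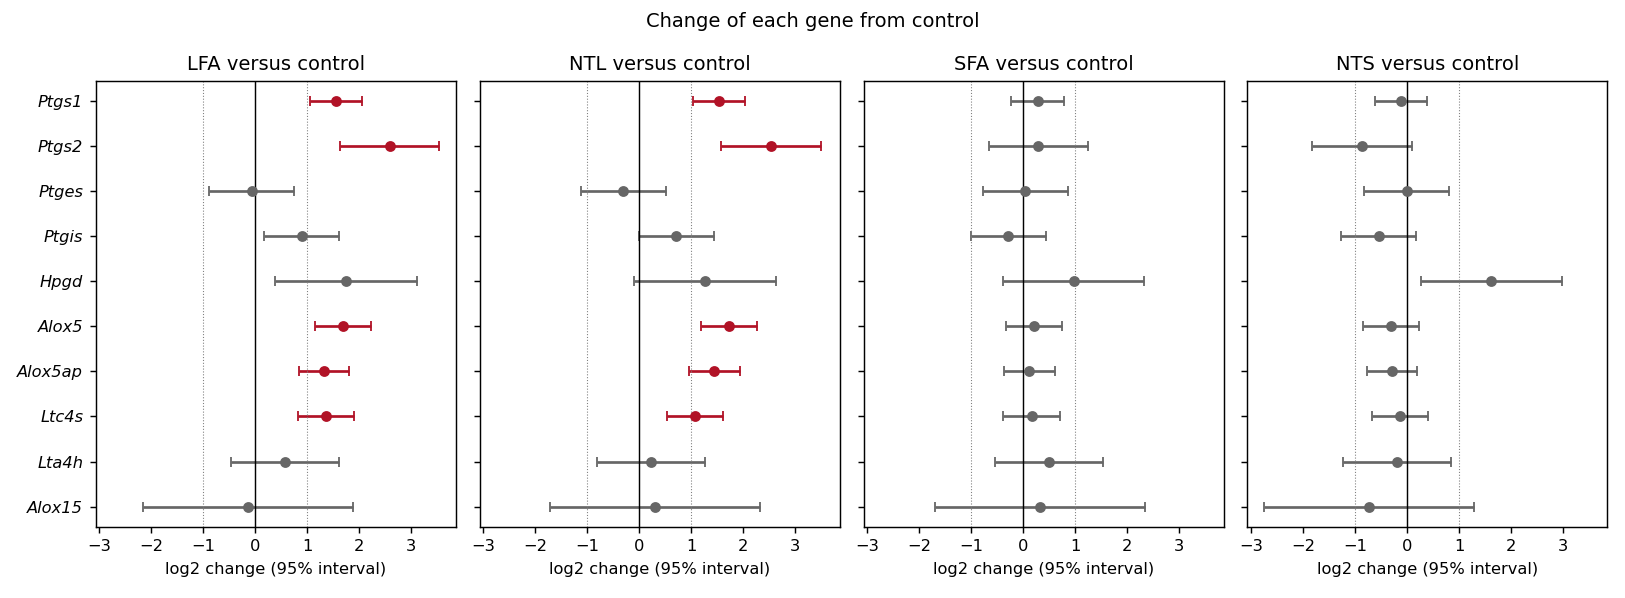
Log2 change from control of each of the 10 genes (points) with its 95% interval (bars) in LFA, NTL, SFA and NTS, red where the gene passed the test, with dotted lines at 2-fold. The 5 red genes are the same in LFA and NTL, and there is none in SFA or NTS.

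The synthases downstream of the cyclooxygenases, Ptges and Ptgis, did not pass the test against control. Ptges, the inducible prostaglandin E synthase (probe at chr2:30744995-30745054, NCBI37, − strand), ranged from 4.70 to 6.51 in control, 4.78 to 5.80 in LFA and 4.63 to 5.63 in NTL. Its change was -0.07 in LFA (95% interval -0.89 to 0.75) and -0.31 in NTL (-1.13 to 0.51). A rise in Ptges as large as that of Ptgs2 lies outside both intervals. The dimmer probe of Ptges gave -0.46 ± 0.52 and -0.18 ± 0.52.

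Ptgis makes prostacyclin, which widens vessels (probe at chr2:167028696-167028755, NCBI37, − strand). It gave 4.53, 5.75, 4.10 and 4.44 in control, 5.23, 5.29, 5.75 and 6.10 in LFA, and 5.32, 6.26, 4.85 and 5.23 in NTL. One control array, replicate 2, stood as high as the long fiber arrays. The change from control was 0.89 ± 0.34 in LFA (limma adjusted p = 0.132) and 0.71 ± 0.34 in NTL (adjusted p = 0.221), neither past the threshold. Without control replicate 2 the LFA change was 1.24 with an adjusted p of 0.0378, and with quantile normalization both passed, at 1.14 (adjusted p = 0.0127) and 1.15 (adjusted p = 0.00627). The 4 NTS arrays, at 4.46, 4.0, 4.17 and 4.02, were all below the 4 NTL arrays, and Ptgis rose in NTL relative to NTS by 1.25 ± 0.34 (adjusted p = 0.0297). The dim second probe of Ptgis changed by 0.24 ± 0.34 in LFA and 0.46 ± 0.34 in NTL from control.

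Hpgd, the dehydrogenase that ends prostaglandin action (probe at chr8:58799399-58799458, NCBI37, + strand), varied widely within the NTS group. Its values were -0.10, -0.76, -0.53 and -0.18 in control, 0.86, 0.73, 0.51 and 0.22 in SFA, 1.75, 0.57, 2.19 and 0.90 in LFA, and 0.96, 0.97, 0.64 and 0.91 in NTL. In NTS replicates 1 and 2 were at -0.58 and -0.28 and replicates 3 and 4 at 2.22 and 3.57. Every SFA, LFA and NTL array was thus above every control array, which held for 0.561% of all probes in SFA, and NTS was split. The change was 1.74 ± 0.65 in LFA (limma adjusted p = 0.118), 1.26 ± 0.65 in NTL (adjusted p = 0.248), 0.97 ± 0.65 in SFA (adjusted p = 0.999) and 1.62 ± 0.65 in NTS (adjusted p = 1.0). The dimmer probe of Hpgd gave 1.93 ± 0.72 in LFA, 1.67 ± 0.72 in NTL, 1.05 ± 0.72 in SFA and 1.94 ± 0.72 in NTS. On that probe SFA overlapped control, since SFA replicate 2 (-1.75) lay below the highest control array (-1.50).

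Transcripts of liver, the organ that lies against the diaphragm, were uneven between arrays. The mean log2 signal of 5 liver markers (Alb, Apoa1, Apoa2, Ttr and Serpina1a) was 9.03 and 8.68 in NTS replicates 3 and 4, against 0.58 and -0.87 in replicates 1 and 2, where Hpgd was low. In LFA it was 7.48 and 7.92 in replicates 1 and 3, where Hpgd was 1.75 and 2.19, and -1.43 in replicates 2 and 4, where Hpgd was 0.57 and 0.90. SFA and NTL did not share this order. In SFA replicates 1 to 4 the mean was 1.79, 7.44, 5.25 and -2.28, with the highest Hpgd (0.86) in replicate 1, and in NTL it was 3.34, 0.36, 5.19 and 4.75, with the highest Hpgd (0.97) in replicate 2 and the lowest (0.64) in replicate 3. In control replicates 1 to 4 the mean was 5.03, -0.59, -0.99 and 0.45. There Hpgd was -0.10 and -0.18 in replicates 1 and 4, and -0.76 and -0.53 in replicates 2 and 3. Of the 5 markers 0 passed the test in LFA or NTL. Without NTS replicate 4 the Hpgd change in LFA passed the test (1.74, adjusted p = 0.0325). With NTS replicates 3 and 4 left out, an alternative chosen after seeing the data, the Hpgd change passed the test in both LFA (1.74, adjusted p = 0.00399) and NTL (1.26, adjusted p = 0.0155). The part of liver transcripts in the Hpgd values was not tested.

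Lta4h, the enzyme that makes leukotriene B4 (probe at chr10:92947503-92947562, NCBI37, + strand), ranged from 1.84 to 3.49 in control, 2.45 to 3.78 in LFA and 2.34 to 3.86 in NTL. It changed by 0.57 ± 0.49 in LFA (95% interval -0.47 to 1.61) and by 0.24 ± 0.49 in NTL (-0.80 to 1.27). Alox15, a lipoxygenase of eosinophils and of resident macrophages of the serous cavities (probe at chr11:70159115-70159339, NCBI37, − strand), was measured least well. Its control arrays alone ran from -4.89 to -1.35, and it was well above background on 18 of 20 arrays. Its changes, -0.14 in LFA and 0.30 in NTL, had an SE of 0.96, and the 95% interval in LFA ran from -2.16 to 1.88.

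The spread of Ptges, Lta4h and Alox15 within groups followed the same arrays. Control replicate 2, LFA replicate 3, NTS replicate 4 and NTL replicate 2 had the smallest share of spots well above background in their groups, 53.0%, 56.3%, 56.3% and 56.8%, when the 20 arrays ranged up to 68.1%. On these 4 arrays Ptges and Lta4h were the highest of their group, and Alox15 and the dimmer Ptges probe were the lowest. In SFA, where the smallest share was 58.7%, none of the 4 probes followed this order. With these 4 arrays left out, chosen after seeing the data, the change of Ptges was 0.15 in LFA and that of Alox15 -0.24 in NTL, and neither passed. Ptgis passed in LFA in that fit (1.18, adjusted p = 0.0242), and Ltc4s in NTL fell short of 2-fold (0.95). With the share as a covariate, 5 genes rose in LFA and 5 in NTL as before. Of the genes that rose, Ptgs1 and Ptgs2 were highest on the smallest-share array of the group in 3 of 5 groups (lowest in 0 and 1). Alox5, Alox5ap and Ltc4s were highest there in 2 groups (lowest in 2, 2 and 1).

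**Figure D3:**
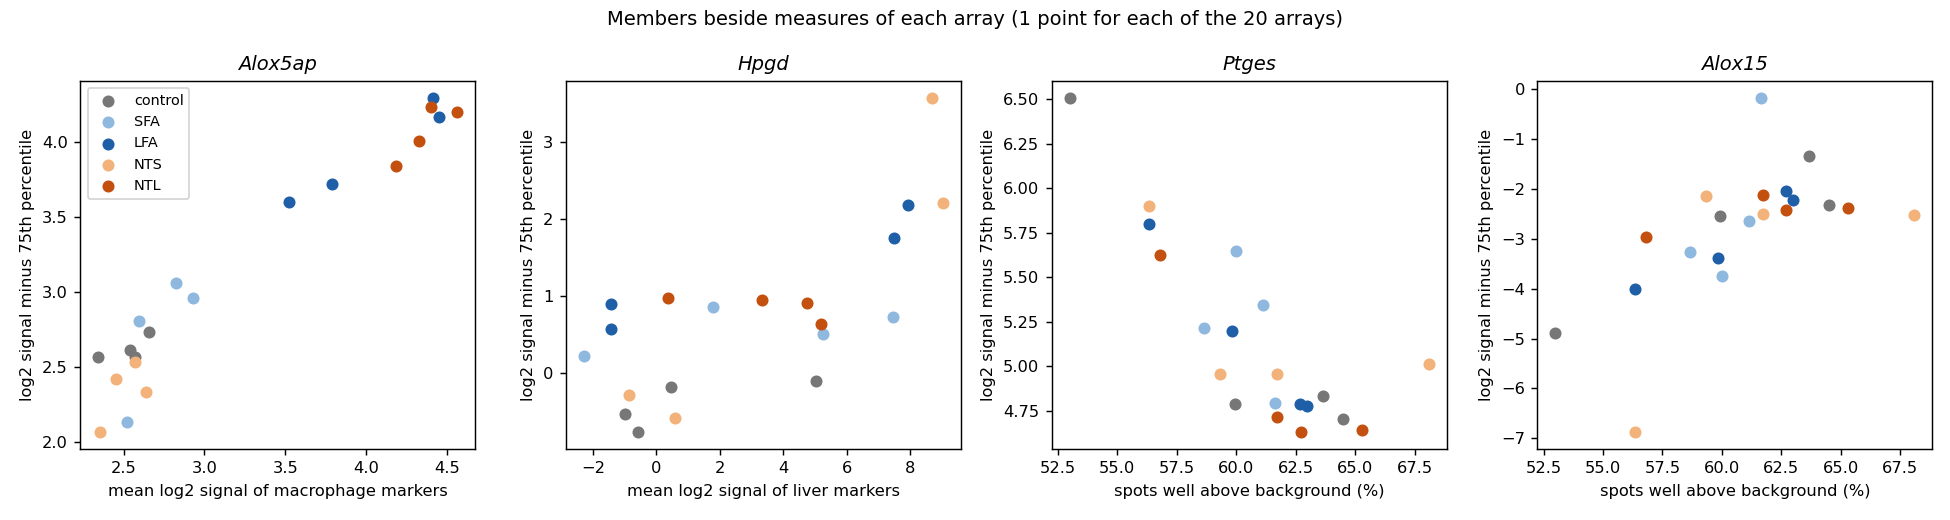
Log2 signal of Alox5ap against the mean of the macrophage markers, of Hpgd against the mean of the liver markers, and of Ptges and Alox15 against the percent of spots well above background, with 1 point per array coloured by group. The LFA and NTL arrays stand apart on both axes for Alox5ap, the 2 highest Hpgd values are NTS replicates 3 and 4, and the highest Ptges value (6.51) is on the array with the smallest share of spots, 53.0%.

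With short fibers, 0 of the 10 genes passed limma's test against control, and so did 0% of all probes in SFA and 0% in NTS. At an unadjusted p under 0.05 the count was 0 of 10 in SFA (2.28% of all probes) and 1 of 10 in NTS (3.49%), which was Hpgd. The methods' test gives 1 p per probe over all 5 groups, with unequal variances allowed. This p was adjusted only over the 10942 probes with a 2-fold change from control in a fiber group. Limma's adjustment covered all 36930 tested probes, so the adjusted p-values are not alike. By the methods' p and a 2-fold change from control 0 genes were called in SFA (0.487% of all probes) and 1 in NTS (0.525%), again Hpgd. The methods' test also called Hpgd in LFA and in NTL (adjusted p = 0.0256 over the 5 groups), where limma did not. The medians were 0.24 in SFA and -0.24 in NTS. The intervals of Alox5 and Alox5ap in SFA ended at 0.75 and 0.60, so a 2-fold rise lies outside them. It also lies outside those of Ptgs1, Ltc4s, Ptges and Ptgis. The SFA intervals of Ptgs2 (to 1.25), Hpgd (to 2.33), Lta4h (to 1.53) and Alox15 (to 2.34) include a 2-fold rise. In NTS those of Hpgd (to 2.98) and Alox15 (to 1.29) include it.

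Comparing fiber lengths directly, 5 of the 10 genes rose in LFA relative to SFA (1.03% of all probes rose), and they were the 5 that rose against control. The changes were 1.27 for Ptgs1, 2.29 for Ptgs2, 1.48 for Alox5, 1.20 for Alox5ap and 1.20 for Ltc4s, with limma adjusted p from 0.00689 to 0.0249. This count was sensitive to single arrays. It fell to 2 without SFA replicate 2, 3 without SFA replicate 4, 2 without LFA replicate 2 and 1 without LFA replicate 4, and to 1 with only LFA and SFA in the fit. Calls over all probes fell as well. They were 380 higher and 49 lower with all arrays, and 168, 298, 155, 170 and 171 in all in these fits, in the same order. In NTL relative to NTS 6 genes rose (4.89% of all probes), the same 5 and Ptgis. The changes were 1.65 for Ptgs1, 3.39 for Ptgs2, 2.03 for Alox5, 1.73 for Alox5ap and 1.20 for Ltc4s. Ptgs2 was well above background on only 1 of 4 NTS arrays, so the size of its change is uncertain.

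Between materials no difference was found. LFA and NTL differed in 0 of 10 genes and 0% of all probes by limma (at an unadjusted p under 0.05, 0 genes and 1.55% of all probes). The methods' p, joined to a 2-fold difference, called 0 genes (0.593% of all probes). That p covers all 5 groups and does not compare LFA with NTL. The differences of LFA minus NTL were 0.01 for Ptgs1 (95% interval -0.49 to 0.52), 0.05 for Ptgs2 (-0.91 to 1.01), -0.03 for Alox5 (-0.57 to 0.50), -0.12 for Alox5ap (-0.61 to 0.36) and 0.29 for Ltc4s (-0.25 to 0.83). A 2-fold difference lies outside these intervals for all but Ptgs2, whose interval just includes it. SFA and NTS differed in 0 of 10 genes and 0% of all probes by limma. At an unadjusted p under 0.05 there was 1 gene (5.83% of all probes), Ptgs2, at 1.15 ± 0.46 higher in SFA. By the methods' p and a 2-fold difference 1 gene was called between SFA and NTS (0.699% of all probes), again Ptgs2. That p covers all 5 groups and does not test this pair, for which the limma adjusted p was 0.844. The length effect of asbestos minus that of nanotubes passed limma's test for 0 of 10 genes and 0% of all probes. At an unadjusted p under 0.05 the count was 0 (3.45% of all probes). Among the 5 genes that rose the largest difference was -1.10 ± 0.65, for Ptgs2. Both this value and the SFA minus NTS difference of Ptgs2 rest on NTS, where 1 of 4 arrays was well above background.

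The order of the group means was alike for the 5 genes. NTS was lowest, then control, then SFA, and LFA and NTL were highest, with NTL above LFA for Alox5 and Alox5ap and below it for Ptgs1, Ptgs2 and Ltc4s. None of the neighbors NTS and control, control and SFA, or LFA and NTL differed past the threshold, whereas LFA differed from SFA for all 5. NTL and SFA, which were neighbors for Ptgs1, Ptgs2 and Ltc4s, were not compared by a test.

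The arrays lay on 3 slides, and the groups were not balanced over them. Slide 1 held no SFA or NTL array, and slide 3, scanned on another day, held no NTS array and 3 NTL arrays. NTL and NTS shared only slide 2, with 1 NTL and 2 NTS arrays. There NTL was above NTS by 1.83 for Ptgs1, 3.16 for Ptgs2, 1.65 for Alox5, 1.62 for Alox5ap, 1.32 for Ltc4s and 1.09 for Ptgis. Within slides, Ptgs1 in LFA was 1.43 to 1.73 above control, Ptgs2 1.95 to 3.13, Alox5 1.44 to 1.88, Alox5ap 1.07 to 1.55 and Ltc4s 0.91 to 1.67. In NTL the within-slide differences were 1.41 to 1.77 for Ptgs1, 1.70 to 2.46 for Ptgs2, 1.50 to 1.77 for Alox5, 1.35 to 1.48 for Alox5ap and 1.03 to 1.21 for Ltc4s. All were positive, and with slide as a block 5 genes rose in LFA and 5 in NTL. In that fit 4 rose in LFA relative to SFA and 4 in NTL relative to NTS. The shares of all probes that rose in this fit are not given here, so these counts show only whether the genes passed.

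Most macrophage markers moved with the genes that rose. Of 7 markers, 5 rose in LFA and 5 in NTL (Cd68, Emr1, Csf1r, Cd14 and Mrc1). Lyz2 did not pass (1.76 in LFA and 2.34 in NTL), and Itgam did not pass and had the opposite sign (-0.80 and -0.60). The mean log2 signal over all 7 was 2.34 to 2.66 in control, 2.52 to 2.93 in SFA, 2.35 to 2.64 in NTS, 3.52 to 4.45 in LFA and 4.18 to 4.56 in NTL. All 7 were well above background on every array. Of 4 markers of resident macrophages of the serous cavities 1 rose in LFA (Timd4, 1.36) and 2 in NTL (Timd4, 1.24, and Gata6, 1.11), and their mean was 1.16 to 1.75 in control, 1.85 to 2.46 in LFA and 1.89 to 2.57 in NTL. Of 6 mast cell markers tested, 0 rose in LFA or NTL, and the defining Ms4a2 was not well above background on any array. Of 4 eosinophil markers tested 0 rose, and the defining Epx was above background on 3 arrays in all. Siglec5 had no control array above background and all 4 in LFA and in NTL, without passing the test. Of 6 neutrophil markers 1 rose in LFA (Cxcr2, 2.57 ± 0.54, with 2 of 4 control arrays well above background) and 0 in NTL, and of 5 platelet markers 0 rose. Fibroblast markers rose in 1 of 5 cases in LFA and 3 of 5 in NTL. Of 4 T cell, 4 B cell, 5 mesothelial and 5 endothelial markers 0 passed in either group. Skeletal muscle markers fell in 1 of 6 cases in LFA and 2 of 6 in NTL, and adipocyte markers in 1 of 4 and 2 of 4. The part of cell numbers in the changes of the 10 genes was not tested.

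For each gene the pair of other named genes most like it over the 20 arrays was found by Pearson r, given as a description because the arrays share their groups. For Ptgs1 these were Gda (r = 0.96) and Ccl6 (0.95), for Alox5 Ccl6 (0.98) and Klrg1 (0.97), for Ltc4s Ccl6 (0.93) and Pycard (0.92), and for Ptgs2 Nfam1 (0.96) and Lilrb3 (0.96). Ccl6, a chemokine of myeloid cells, was thus among the nearest to 3 of the 5. For Alox5ap they were Cd14 (0.98) and Dpep2 (0.98), and after removing group means r was 0.82 and 0.76. Within groups r with Ccl6 was 0.49 for Ptgs1, 0.81 for Alox5 and 0.58 for Ltc4s. The genes that did not pass limma's test against control had other neighbors: Dkk3 and Vat1l for Ptgis (both 0.95), Akr1c13 and Ttc39c for Hpgd (both 0.95), Oas1b and Tprkb for Ptges (0.99 and 0.98), Ube2z and Usp1 for Lta4h (both 0.98), and Ulk4 and Mkrn3 for Alox15 (0.88 and 0.87).

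The rest of the pathway was taken from a list of 66 symbols, some of them older and newer names of 1 gene, of which 63 were on the arrays and 53 could be tested. In LFA 8 of the 53 rose (2.22% of all probes) and 1 fell (1.72%). In NTL 10 rose (3.63% of all probes) and 3 fell (3.18%). In SFA and NTS 0 passed (0% of all probes in each). At an unadjusted p under 0.05 the counts were 5 in SFA (2.28% of all probes) and 2 in NTS (3.49%). Their median change, 0.13 in LFA and 0.12 in NTL, stood against 1.34 and 1.17 for the 10 members.

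Tbxas1, which makes thromboxane from the cyclooxygenase product, rose by 1.92 ± 0.25 in LFA (limma adjusted p = 0.000465) and 2.26 ± 0.25 in NTL (adjusted p = 5.86e-05). Hpgds, the prostaglandin D synthase of blood cells, rose by 1.83 ± 0.36 and 2.79 ± 0.36, from a control group in which 2 of 4 arrays were well above background. Ptges2, a further prostaglandin E synthase, was the one synthase that fell, by 1.19 in LFA and 1.22 in NTL (SE 0.29). Of the 9 tested synthases 2 rose and 1 fell in each long fiber group.

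Dpep2, a dipeptidase that turns leukotriene D4 into E4, rose by 2.51 ± 0.34 in LFA and 3.11 ± 0.34 in NTL, the largest rise of the list in NTL (adjusted p = 0.000627 and 5.18e-05). Cyp4f18, which inactivates leukotriene B4, rose by 1.16 and 1.29 (SE 0.32). Among 5 receptors of leukotrienes and lipoxins 3 rose in both groups. Cysltr1, a receptor of the cysteinyl leukotrienes, rose by 1.90 and 2.17 (SE 0.31), and Fpr2, a formyl peptide and lipoxin receptor, by 2.73 and 2.28 (SE 0.50). Cysltr2 had no control array well above background. Its level was at least 1.83-fold higher in LFA (limma adjusted p = 0.0128) and at least 2.56-fold higher in NTL (adjusted p = 0.00102), where such a bound sets the brighter group against the lowest signal that counted as above background.

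Of 7 prostanoid receptors 1 rose, Ptger2, a receptor of prostaglandin E2, by 2.54 and 2.70 (SE 0.47). Of 16 phospholipases and related genes 0 passed in LFA, whereas in NTL 2 rose, among them Pla2g7 (1.56 ± 0.39), and Pla2g12a fell by 1.19. Of 6 genes of breakdown and transport Ptgr2, a prostaglandin reductase, fell in NTL by 1.14 ± 0.30. The 4 tested lipoxygenases other than the members did not pass in either group.

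**Figure D4:**
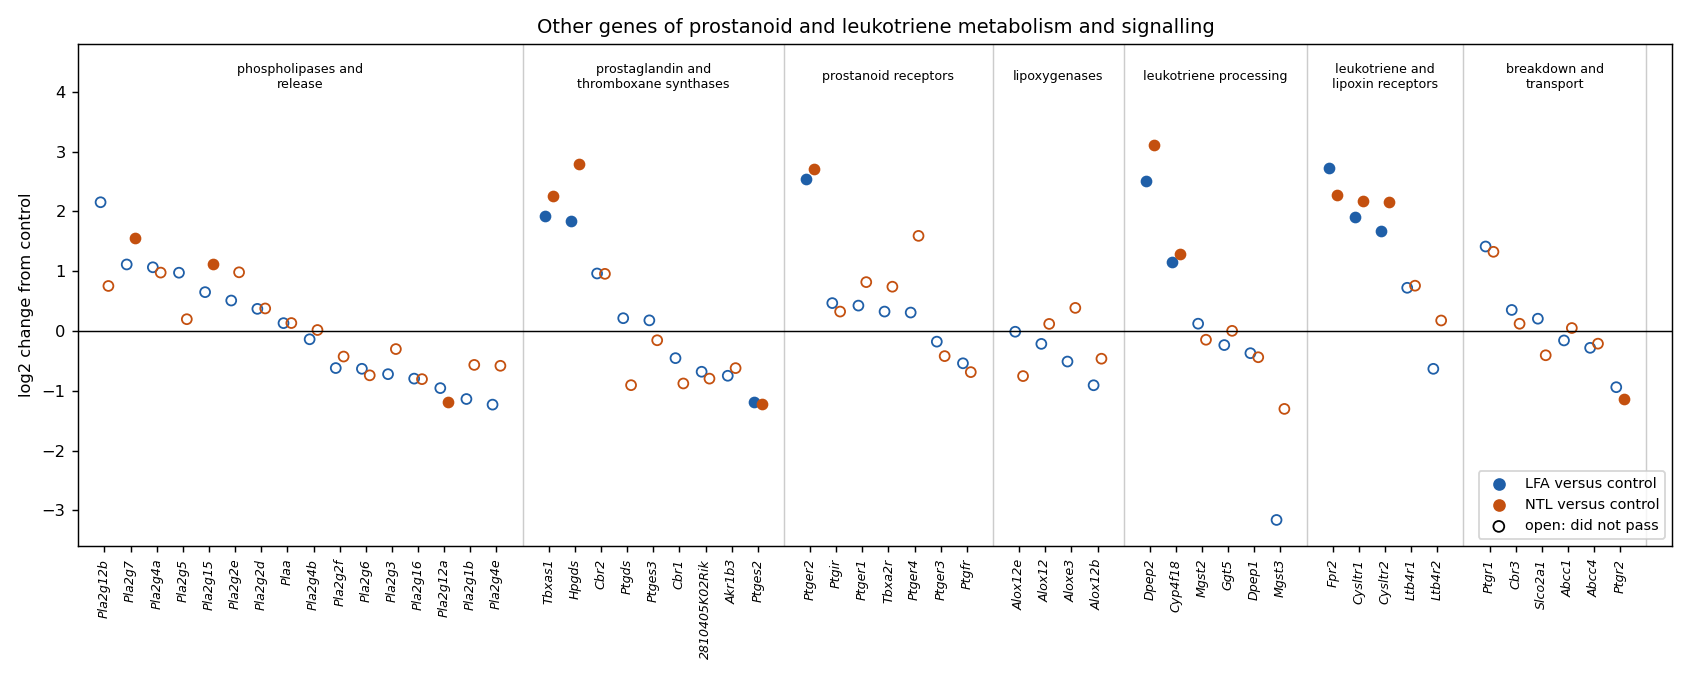
Log2 change from control in LFA (blue) and NTL (orange) of the 53 tested genes of the pathway list, by function, with filled points for genes that passed the test. Genes that rose in both groups are the synthases Tbxas1 and Hpgds, the receptors Ptger2, Fpr2, Cysltr1 and Cysltr2, and Dpep2 and Cyp4f18. Ptges2 fell in both groups, Pla2g12a and Ptgr2 fell in NTL, and 2 phospholipases and related genes rose in NTL. The NTL change of Dpep2, 3.11, is the highest on the plot.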

How the data were processed

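RNA of 20 diaphragms was labeled with Cy3 by the authors and hybridized to one-colour Agilent 60K mouse arrays. The authors deposited, for each array, the intensity of every spot after background subtraction by Agilent Feature Extraction 10.7.3.1 (the submitters' processing notes). They also deposited a table of normalized log2 values, 1 column per group, which was used only as an alternative without a test. The deposited positions are on NCBI37.

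Control spots were removed, as were 92 to 204 outlier spots on each array. There were 0 saturated spots. Spots of 1 probe were averaged as log2 values minus the array's 75th percentile, which ranged from 294 to 996 in intensity between arrays, and 53.0% to 68.1% of spots were well above background. The number of arrays limits the precision. A probe was tested when well above background on at least 4 of 20 arrays. A linear model with 1 mean for each of the 5 groups was fitted to all arrays in R 4.3.3 with limma 3.58.1 (lmFit and eBayes, with Benjamini-Hochberg adjustment over 36930 probes and calls at adjusted p under 0.05 and at least 2-fold). The steps were tested on simulated data. A gene stands by its brightest tested probe. The p-values rest on the spread between mice within groups. The labels do not state which mice shared a cage or an RNA preparation day, so effects of these cannot be told apart from those of the groups.

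Same-numbered arrays of control and NTL deviated together (r from 0.11 to 0.69 for the 4 numbers), which held for no other pair of groups.

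The 10 members, the lists and the alternatives were chosen with earlier results of these data known. The named genes are the members, up to 12 pathway genes that passed in LFA or NTL by size of change, and the 2 genes most like each member. Alternatives were quantile normalization, normexp (offset 50), filters on none or on all of the arrays, gene means, the authors' table, slide, scan day and replicate number as blocks, only the groups compared, each array left out, and the methods' test with unequal variances. Python 3.11.15 with pandas 2.3.3 and matplotlib 3.10.9 served for reading and plots. Motif shares were counted over 32851 RefSeq promoters. Kinase arrays and staining of the study were not analysed here.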

Additional observations from a re-analysis of the deposited data

Results flagged for a closer look

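In 65 sets of 4 arrays (13 probes in 5 groups), 9 held an array far from the other 3, and chance gives about 1 in 20 such sets. The gap as a share of the range was 0.929 for Ptges in control (replicate 2, 6.51 against 4.83 for the next), 0.94 in NTS (replicate 4, 5.90 against 5.01) and 0.917 in NTL (replicate 2, 5.63 against 4.71). It was 0.975 for Lta4h in NTL (replicate 2, 3.86 against 2.38), 0.927 for Alox5 in NTL (replicate 2, 2.45 against 1.86) and 0.922 for Alox15 in NTS (replicate 4, -6.87 against -2.52). Of these 6 sets, all involve control replicate 2, NTS replicate 4 or NTL replicate 2, the arrays with the smallest share of spots above background in their groups. For Ltc4s in LFA it was 0.862 (replicate 1, 3.48 against 3.96). The second probes gave 0.957 for Hpgd in SFA (replicate 2, -1.75 against -0.79) and 0.877 for Ptgis in control (replicate 4, -3.15 against -3.40). The length effect of amosite minus that of nanotubes passed limma's test for 0 of the 10 genes and 0% of all probes.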

How the results depend on the processing

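Ptgs1, Ptgs2, Alox5 and Alox5ap passed in LFA and in NTL under every alternative in which they were tested, and Ltc4s did so in LFA. In NTL Ltc4s did not pass with only NTL and control in the fit (1.07, adjusted p = 0.0588), without NTL replicate 2 (0.89) or without the 4 arrays with few spots above background (0.95). Ptgs2 and Alox15 were not tested under the filter on all 20 arrays, and Ptgs2 moved most, to 1.17 in LFA and 1.07 in NTL at its lowest. With each array left out in turn, the number of the 10 genes that passed was 5 to 6 in LFA, 4 to 5 in NTL, 0 to 0 in SFA, NTS, LFA versus NTL, SFA versus NTS and the difference of length effects, 1 to 6 in LFA versus SFA and 5 to 6 in NTL versus NTS, and of the pathway list 6 to 11 in LFA (6 without LFA replicate 2) and 11 to 13 in NTL. Where no share of all probes stands beside a count under an alternative, the count shows only whether the calls of these genes held. With only the groups compared the counts were 1 in LFA versus SFA (171 of all probes) and 5 of the pathway list in LFA (588 of all probes). The methods' test, whose 1 p covers all 5 groups, gave 1 in NTS (Hpgd) and 1 in SFA versus NTS (Ptgs2). Its counts in LFA and NTL were 6 and 6 (5.62% and 6.52% of all probes), the 5 that rose and Hpgd.

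The labels do not say that equal replicate numbers pair the mice. Over all groups, deviations of same-numbered arrays correlated between -0.68 and 0.69, and 14 of 40 pairs exceeded 0.1, among them all 4 pairs of control and NTL. With replicate number as a block, 5 genes passed in LFA, 5 in NTL, 5 in LFA versus SFA and 6 in NTL versus NTS, and 8 and 13 of the pathway list.

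Ptges, Alox15 and Lta4h, none of which passed, turned in sign. Ptges was 0.21 in LFA and 0.16 in NTL with quantile normalization, 0.0030 in LFA with normexp, 0.15 in LFA without the 4 arrays, and from -0.29 to 0.36 in LFA and -0.55 to 0.13 in NTL with single arrays left out. Alox15 was 0.11 in LFA with quantile normalization and 0.15 with slide as a block, and in NTL -0.16 with normexp, -0.21 with slide, -0.053 with scan day, -0.24 without the 4 arrays and -0.047 with the share as a covariate. With single arrays left out it ran from -0.84 to 0.34 in LFA and -0.40 to 0.78 in NTL, and Lta4h in NTL from -0.14 to 0.57. The cause was not tested. Hpgd in NTL passed with only NTL and control in the fit (1.26, adjusted p = 0.0215). Quantile normalization put the median of all probes at -0.08 in LFA (-0.28 before) and -0.09 in NTL (-0.25 before). The size of Ptgs2 is limited by its dim signal outside the long fiber groups, and the intervals of Alox15 extend about 2 log2 units to either side.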
